A study of Macaca mulatta with 9 samples.

Results

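Cytosolic ribosomal proteins, the protein components of the cytoplasmic ribosome, were followed in rhesus macaque embryonic stem (ES) cells, embryoid bodies and skin fibroblasts on Affymetrix Rhesus arrays. A probe set, the group of short probes that reports a transcript, was taken as a member when the deposited annotation gave it 1 symbol made of RPL or RPS and a number, with A, X or L as an optional last letter, or RPLP0, RPLP1 or RPLP2. This gave 151 probe sets for 70 genes, of 52763 probe sets in all. The rule itself used no measured value, but the members were chosen with earlier results of these data known. The large subunit accounted for 102 probe sets of 43 genes and the small subunit for 49 probe sets of 27 genes. A further 7 probe sets carried several symbols with a member among them and were left out. RPL3, RPL39 and RPSA were not analysed here.

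Differentiated cells were represented by pooled embryoid bodies (EBs) and by adult skin fibroblasts, with 1 array for each. EBs are aggregates in which ES cells differentiate spontaneously, here for 30 days after FGF2 was withdrawn. The labels give ultra-low adhesion dishes in one field and a week of suspension followed by gelatin-coated dishes in another, and do not say which lines were pooled. The fibroblasts were trypsinized at confluence. The undifferentiated cells came from 5 lines, ORMES6, ORMES7, ORMES9, ORMES10 and ORMES13, grown on inactivated mouse embryonic fibroblasts with FGF2 and picked by hand for good colony morphology. There were 3 arrays of ORMES6, labelled as biological replicates A to C, and 1 array of each other line, 9 arrays in all. Nothing in the labels says whether replicates came from separate cultures, and a p-value here measures the spread between the 5 lines only, since the lone EB and fibroblast arrays were assumed to vary as the lines do.

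Each ribosome is built from a small subunit, which reads the messenger RNA, and a large subunit, which joins the amino acids. Ribosomal protein messages carry a terminal oligopyrimidine (TOP) tract at their start, through which their translation follows growth signals, and their promoters are among the most active in dividing cells. Fast-cycling pluripotent cells make ribosomes at a high rate, and mutations in single ribosomal protein genes cause Diamond-Blackfan anaemia in humans.

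All levels are given as log2(signal + 16) of the deposited signals. Differences are EB minus ES or fibroblast minus ES on that scale, with the mean of the 5 lines as the ES value and the standard error (SE) of a limma fit over all probe sets. A difference is called when its Benjamini-Hochberg adjusted p over all 52763 probe sets is below 0.05. Every array had been scaled to nearly the same trimmed mean (200.014 to 200.028), so a difference is relative to the other transcripts on the array. In these bulk samples, fewer cells of a type and less RNA per cell cannot be told apart. Levels of different probe sets are not compared with each other.

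Of the 151 members, 97 probe sets from 63 genes were detected (Present, detection p below 0.05) on all 5 ES lines, and 25 were Present on none. Detection was deposited for 62 members in fibroblasts and was treated as unknown in EBs. The hybridisation spikes, control transcripts added to each array, had a geometric mean signal of 625.2 for EBs and 1023 for fibroblasts. Among the ES arrays it was 677 and 712.9 for ORMES6 A and B and 1102 to 1347 for the others. A measure of RNA degradation, the actin signal near the 3' end over that near the 5' end, was 7.16 for EBs and 13.1 for fibroblasts, against 22.7 to 66.2 for the ES arrays. The same ratio for GAPDH was 1.61 for EBs and 2.74 for fibroblasts, against a lowest value of 2.55 among the ES arrays, so the EBs lay outside the ES range on both measures and the fibroblasts on the actin measure only. The part of RNA quality in the results was not tested. Of 6 measured ES cell markers, 5 were called lower in EBs and 5 in fibroblasts, with a summed signal of 2613 in EBs and 51 in fibroblasts, against 19002 to 28776 on the ES arrays. All 7 measured fibroblast markers had positive differences in both samples, and their summed signal was 28727 in EBs and 34821 in fibroblasts, against 1340 to 16250 on the ES arrays. Of 7 neural markers, 3 were called higher and 1 lower in EBs, and the summed signal was 11524 in EBs and 1169 in fibroblasts, against 5346 to 9876 on the ES arrays. Of 3 cardiac and 6 endoderm markers 0 were called in EBs, and of 7 blood and endothelium markers 1 was called lower. Endoderm markers summed to 841 in EBs and 348 in fibroblasts, against 505 to 6950 on the ES arrays. The part of other cell types in the results was not tested.

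The first comparison asked how ribosomal protein messages stood after spontaneous differentiation. Members lay mostly a little lower in EBs than in the ES lines. The median difference was -0.23 over the 151 members, against -0.04 over the other probe sets. A negative difference was found for 101 members, against 28019 of the 52612 other probe sets. By line, the members' median was -0.25 against ORMES6, -0.37 against ORMES7, -0.39 against ORMES9, -0.18 against ORMES10 and 0.00 against ORMES13 (SD 0.16 over the 5 lines). The test called 2 members lower (1.32%) and 0 higher, where 0.912% of all probe sets were called lower, 1.53% higher and 2.44% either way. At an unadjusted p under 0.05 there were 45 members (29.8%), against 16.5% of all probe sets. The EB array lay below all 7 ES arrays for 50 members (33.1%), against 17.7% of all probe sets, and above all 7 for 18 members (11.9%), against 18% of all probe sets. The direction of the median depended on scaling: after quantile normalization it was 0.02.

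The members' EB differences varied between classes of level, with no steady order. In the largest class, under a level of 7, the 58 members had a median of -0.07, against -0.04 for 37735 other probe sets. Among the 30 members with a mean level of 13 or more, all 30 had a negative EB difference, with a median of -0.60, and the EB array lay below all 7 ES arrays for 27 (90%). The 107 other probe sets at that level were all negative too, with a median of -0.66. For 88.8% of these others the EB array lay below all 7 ES arrays. After quantile normalization the median of these 30 members was 0.04, with 13 negative, against 68 of the 107 others. With the spike level as a covariate the members' median was -0.37, with 30 negative, against 99 of the others. Without the low-spike arrays ORMES6 A and B it was -0.68, with 30 negative, against 107 of the others. Between levels of 12 and 13, the 25 members had a median of -0.16, against -0.51 for 425 other probe sets, and after quantile normalization the medians were 0.27 and -0.13. Between 9 and 12, the 20 members had a median of 0.36, against -0.14 for 5940 other probe sets, and the EB array lay above all 7 ES arrays for 6 members (30%) and below all 7 for 0, against 19% and 32.7% of the others. Between 7 and 9, the 18 members had a median of -0.66, against 0.12 for 8405 other probe sets. These level classes were chosen after the values were seen.

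**Figure D1:**
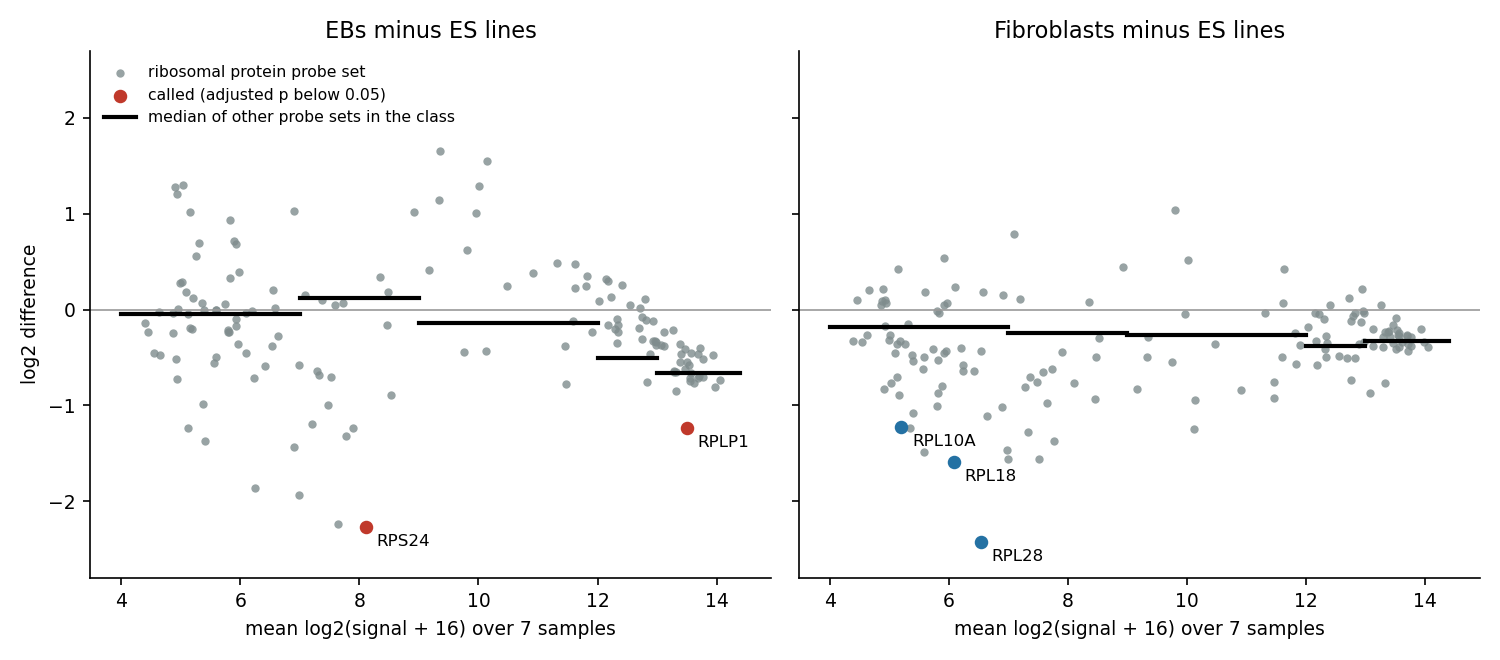
Log2 difference of each of the 151 ribosomal protein probe sets (y axis; left, EBs minus ES lines; right, fibroblasts minus ES lines) against its mean log2 level over the 7 samples (x axis), with called probe sets coloured and named and black bars for the median of the other probe sets in each level class. In EBs the 30 brightest members lie below 0 (median -0.60, but 0.04 after quantile normalization), as do the 107 other probe sets at that level. The members between 9 and 12 lie mostly above the bar of the other probe sets.

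The brightest members were low on the arrays with low spikes. Their median level was 13.05 in EBs and 13.40 in fibroblasts, against 13.31, 13.34 and 13.89 in ORMES6 A, B and C, 13.68 (ORMES7), 13.75 (ORMES9), 13.60 (ORMES10) and 13.72 (ORMES13). The other bright probe sets ran in the same way, with 12.80 in EBs and 13.12 in fibroblasts, against 13.17 to 13.65 on the ES arrays. The members' share of the summed signal of an array was 3.09% in EBs and 3.00% in fibroblasts, against 3.09% to 4.35% on the ES arrays, with the lowest ES shares in ORMES6 A and B. Spike level moved with these levels, and its part in them was not tested beyond the settings given here. With spike level as a covariate, 0 members were called by limma against the EBs, and 1 probe set in the whole table.

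**Figure D2:**
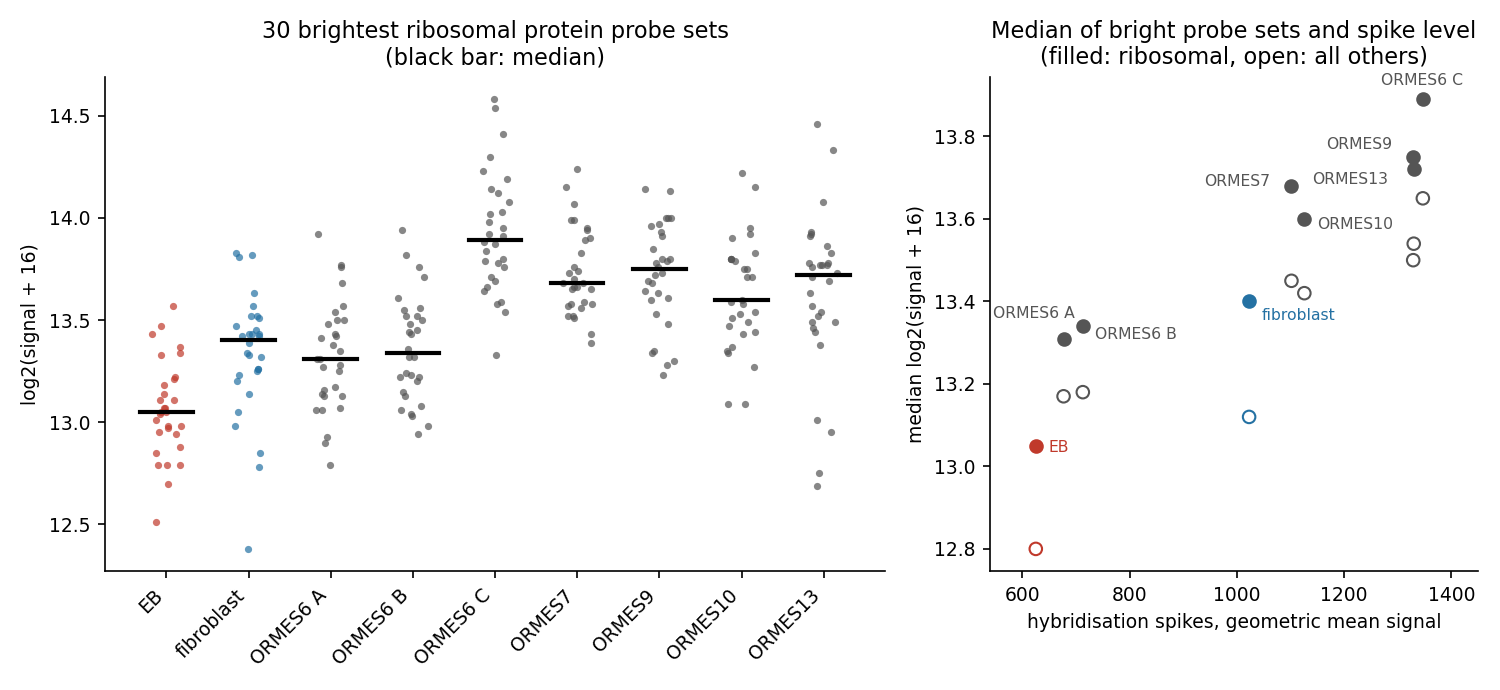
Left, log2(signal + 16) of the 30 ribosomal protein probe sets with a mean level of 13 or more on each array (points) with the array's median (bar). Right, the median of these members (filled) and of the 107 other probe sets at that level (open) against the geometric mean signal of the hybridisation spikes; EBs, ORMES6 A and ORMES6 B have the lowest spikes, and their member medians (13.05, 13.31 and 13.34) are the lowest of the 9 arrays.

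RPLP1 (MmugDNA.25908.1.S1_at), an acidic protein of the stalk that recruits elongation factors to the large subunit, was 12.51 in EBs. ES values were 13.42, 13.32 and 14.12 for ORMES6 A, B and C, 13.76 (ORMES7), 13.78 (ORMES9), 13.79 (ORMES10) and 13.78 (ORMES13). The EB value lay below every ES array. RPLP1 fell by 1.24 ± 0.19 (SE, 5 lines against 1 array, limma adjusted p = 0.015). It was called under 16 of 19 alternatives (adjusted p from 0.00373 to 0.421), and not after quantile normalization, without a variance trend or with the spike covariate. In the authors' deposited table, the log2 ratio of ES over EB for this probe set was 0.1 to 0.6 on the 7 ES arrays, with 0 increase calls. Its second probe set, MmugDNA.28801.1.S1_at, was not Present on all 5 lines.

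RPS24 (MmugDNA.31828.1.S1_at), a small subunit protein mutated in some patients with Diamond-Blackfan anaemia, was 6.27 in EBs. ES values were 9.08, 9.08 and 8.22 for ORMES6 A, B and C, 8.78 (ORMES7), 8.95 (ORMES9), 8.52 (ORMES10) and 7.64 (ORMES13). The EB array was again below all ES arrays. RPS24 fell by 2.27 ± 0.48 on this probe set (limma adjusted p = 0.0481, near the threshold), and the authors' deposited table gave an increase call in ES over EB on all 7 ES arrays, with log2 ratios of 1.7 to 3.4. It was called under 10 of 18 alternatives (adjusted p from 0.0154 to 0.337), and not with an offset of 64, without a variance trend, with the spike covariate, or without ORMES6, ORMES7, ORMES9, ORMES10 or ORMES6 replicate C. The other RPS24 probe set, the brighter one, differed by 0.23 (limma adjusted p = 0.763), so the gene's probe sets disagreed.

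Leaving out dim probe sets raised the number of members called lower in EBs to 16 of 107 tested (15%), against 4.33% of all 21934 probe sets in that fit. The fit at the level of genes called 5 of 70 lower (7.14%), against 2.77% of all 19724 genes. Both sets included RPLP1, the small subunit proteins RPS3, RPS12 and RPS16, and the large subunit protein RPL32. For RPL32 the called probe set was MmugDNA.25831.1.S1_s_at. Another RPL32 probe set Present on all lines (MmugDNA.25831.1.S1_at) had an EB difference of 0.25, so the probe sets of this gene disagreed. RPS3, a protein near the entry of the mRNA channel, had a difference of -0.81 (limma adjusted p = 0.0659 in the fit over all probe sets, 0.0317 over genes and 0.0164 without dim probe sets). RPS12 had -0.69 on its brighter probe set (limma adjusted p = 0.0939, 0.0435 and 0.0216 in the same 3 fits). All of these members belonged to the level class in which other probe sets were also low on the EB array, except the dimmer probe sets of RPS24, RPL37A, RPS2 and RPS16 that the filtered fit also called.

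Among the members that missed the threshold, the largest negative differences came from dimmer probe sets. RPL37A (MmugDNA.41298.1.S1_at), a large subunit protein, was 5.87 in EBs, against 7.25 to 9.26 on the 7 ES arrays, a difference of -2.24 ± 0.53 (limma adjusted p = 0.0671). RPL10A (MmugDNA.36145.1.S1_at), which forms the large subunit's other stalk, was 5.53 in EBs, against 6.65 to 8.42 (-1.93 ± 0.58, adjusted p = 0.129 in limma). RPS2 (MmugDNA.29606.1.S1_at) was 4.73 in EBs, below all 7 ES arrays (highest 7.32), but was Present on 0 lines. RPS16 (MmugDNA.5076.1.S1_at) was 5.82 in EBs, against 6.75 to 7.61 on the ES arrays. The EB array lay below the ES arrays for each of these 4.

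The largest positive differences also missed the threshold. RPS7 (MmugDNA.3372.1.S1_at), a small subunit protein that can bind the p53 regulator MDM2, was 10.81 in EBs. ES values were 9.39, 9.77 and 10.11 for ORMES6 A, B and C, 9.99 (ORMES7), 8.83 (ORMES9), 8.58 (ORMES10) and 8.63 (ORMES13). The EB array lay above all of them, with a difference of 1.66 ± 0.55 (limma adjusted p = 0.166). RPS15 (MmugDNA.25954.1.S1_at), a protein of the small subunit's head, was 11.60 in EBs, against 9.30 to 10.98 on the ES arrays (1.55 ± 0.47, limma adjusted p = 0.133). RPL17 (MmugDNA.2726.1.S1_at), near the exit of the peptide tunnel, was 11.03 in EBs, against 8.69 to 10.73 (1.28 ± 0.58, limma adjusted p = 0.316). For both, the EB array lay above all 7 ES arrays. RPL13 (MmugDNA.41466.1.S1_at) and RPL5 (MmugDNA.20626.1.S1_at) had differences of 1.30 and 1.27, but the first was Present on 1 line and the second on none.

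The comparison with skin fibroblasts set the ES cells against a mature somatic cell. The median difference was -0.36 over the 151 members, against -0.19 over the other probe sets. A negative difference was found for 124 members, against 33751 of the 52612 other probe sets. Centring each array on its median moved the median fibroblast difference of all probe sets up by 0.29, and the members' median was then -0.07. By line, the members' median lay between -0.43 and -0.27 (SD 0.08 over the 5 lines). The test called 3 members lower (1.99%) and 0 higher, where 6.44% of all probe sets were called lower, 5.48% higher and 11.9% either way. At an unadjusted p under 0.05 there were 23 members (15.2%), against 24.2% of all probe sets. The fibroblast array lay below all 7 ES arrays for 56 members (37.1%), against 30.6% of all probe sets, and above all 7 for 2 members (1.32%), against 15.3%.

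Among the 30 brightest members the fibroblast median was -0.29, against -0.33 for the 107 other bright probe sets. Of these members 29 were negative, and of the 107 others 97. After centring on the median the members' median was 0.00, with 14 negative, against 61 of the others. For 10 of the 30 the fibroblast array lay below all ES arrays (33.3%), against 50.5% of the other bright probe sets.

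RPL28 (MmugDNA.32709.1.S1_at), a large subunit protein with no bacterial counterpart, was 4.51 in fibroblasts, where it was called Absent (detection p 0.541). ES values were 7.30, 7.61 and 7.97 for ORMES6 A, B and C, 7.39 (ORMES7), 7.16 (ORMES9), 6.36 (ORMES10) and 6.14 (ORMES13). The probe set was Present on 4 of the 5 lines. The fibroblast array lay below all ES arrays. RPL28 fell by 2.43 ± 0.58 (limma adjusted p = 0.0271), a point estimate of 5.39-fold lower in fibroblasts on this scale. Its difference was -3.78 to -1.29 under the alternatives. It was called under 16 of 19 alternatives (adjusted p from 0.00710 to 0.0831), and not with an offset of 64, after quantile normalization or without ORMES9. It was the only RPL28 probe set among the members.

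RPL18 (MmugDNA.6204.1.S1_at), a large subunit protein, was 4.79 in fibroblasts. ES values were 6.09, 5.72 and 5.98 for ORMES6 A, B and C, 6.37 (ORMES7), 6.32 (ORMES9), 6.77 (ORMES10) and 6.53 (ORMES13). The groups did not overlap, and RPL18 fell by 1.60 ± 0.42 (limma adjusted p = 0.0381). The call held under 8 of 18 alternatives (adjusted p from 0.0166 to 0.0771) and was lost, among others, without ORMES7, without ORMES9, without ORMES10, without ORMES13 and without ORMES6 replicate C. The brighter RPL18 probe set had a difference of -0.50 (limma adjusted p = 0.205). The third called probe set, of RPL10A (MmugDNA.39246.1.S1_at), was 4.14 in fibroblasts, against 5.19 to 5.48 on the ES arrays. It was Absent on all 5 lines, so its difference (-1.22 ± 0.33, limma adjusted p = 0.0423) starts from ES values not above background, and the call held under 7 of 17 alternatives. Among the 97 members Present on all 5 lines, 0 were called against fibroblasts, where limma called 25.8% of all 16769 probe sets Present on these lines. Unadjusted p-values under 0.05 numbered 14 among these 97 members, against 45.5% of those probe sets.

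Further members were low in fibroblasts without passing the test. RPL12 (MmugDNA.32762.1.S1_at), which anchors the stalk, was 5.73 in fibroblasts, against 6.31 to 7.83 on the ES arrays (-1.56 ± 0.54, limma adjusted p = 0.102). RPS25 (MmugDNA.41046.1.S1_at), a small subunit protein used by some internal ribosome entry sites, was 6.28, against 6.97 to 8.84 (-1.56 ± 0.53, limma adjusted p = 0.101). RPL5 (MmugDNA.38649.1.S1_at) was 4.39, against 5.22 to 6.33, and was Absent on all 5 lines. For these 3 probe sets the fibroblast array lay below all ES arrays. The brighter probe sets of RPL12 and RPS25, Present on all 5 lines, had fibroblast differences of -0.04 and -0.19 (limma adjusted p = 0.967 and 0.832). The probe sets of these 2 genes therefore disagreed.

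The largest positive fibroblast difference belonged to RPL4 (MmugDNA.26331.1.S1_at), which lines the peptide tunnel. It was 10.60 in fibroblasts. ES values were 10.33, 10.30 and 9.51 for ORMES6 A, B and C, 9.57 (ORMES7), 9.15 (ORMES9), 9.78 (ORMES10) and 9.29 (ORMES13). The fibroblast array lay above all ES arrays, with a difference of 1.03 ± 0.37 that missed the threshold (limma adjusted p = 0.113) and passed it after median centring and without ORMES6 A and B. A further RPL4 probe set (MmugDNA.30798.1.S1_s_at) was 9.16 in fibroblasts, against 7.74 to 9.49 on the ES arrays. The other probe set above all 7 ES arrays was one of RPS27L.

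**Figure D3:**
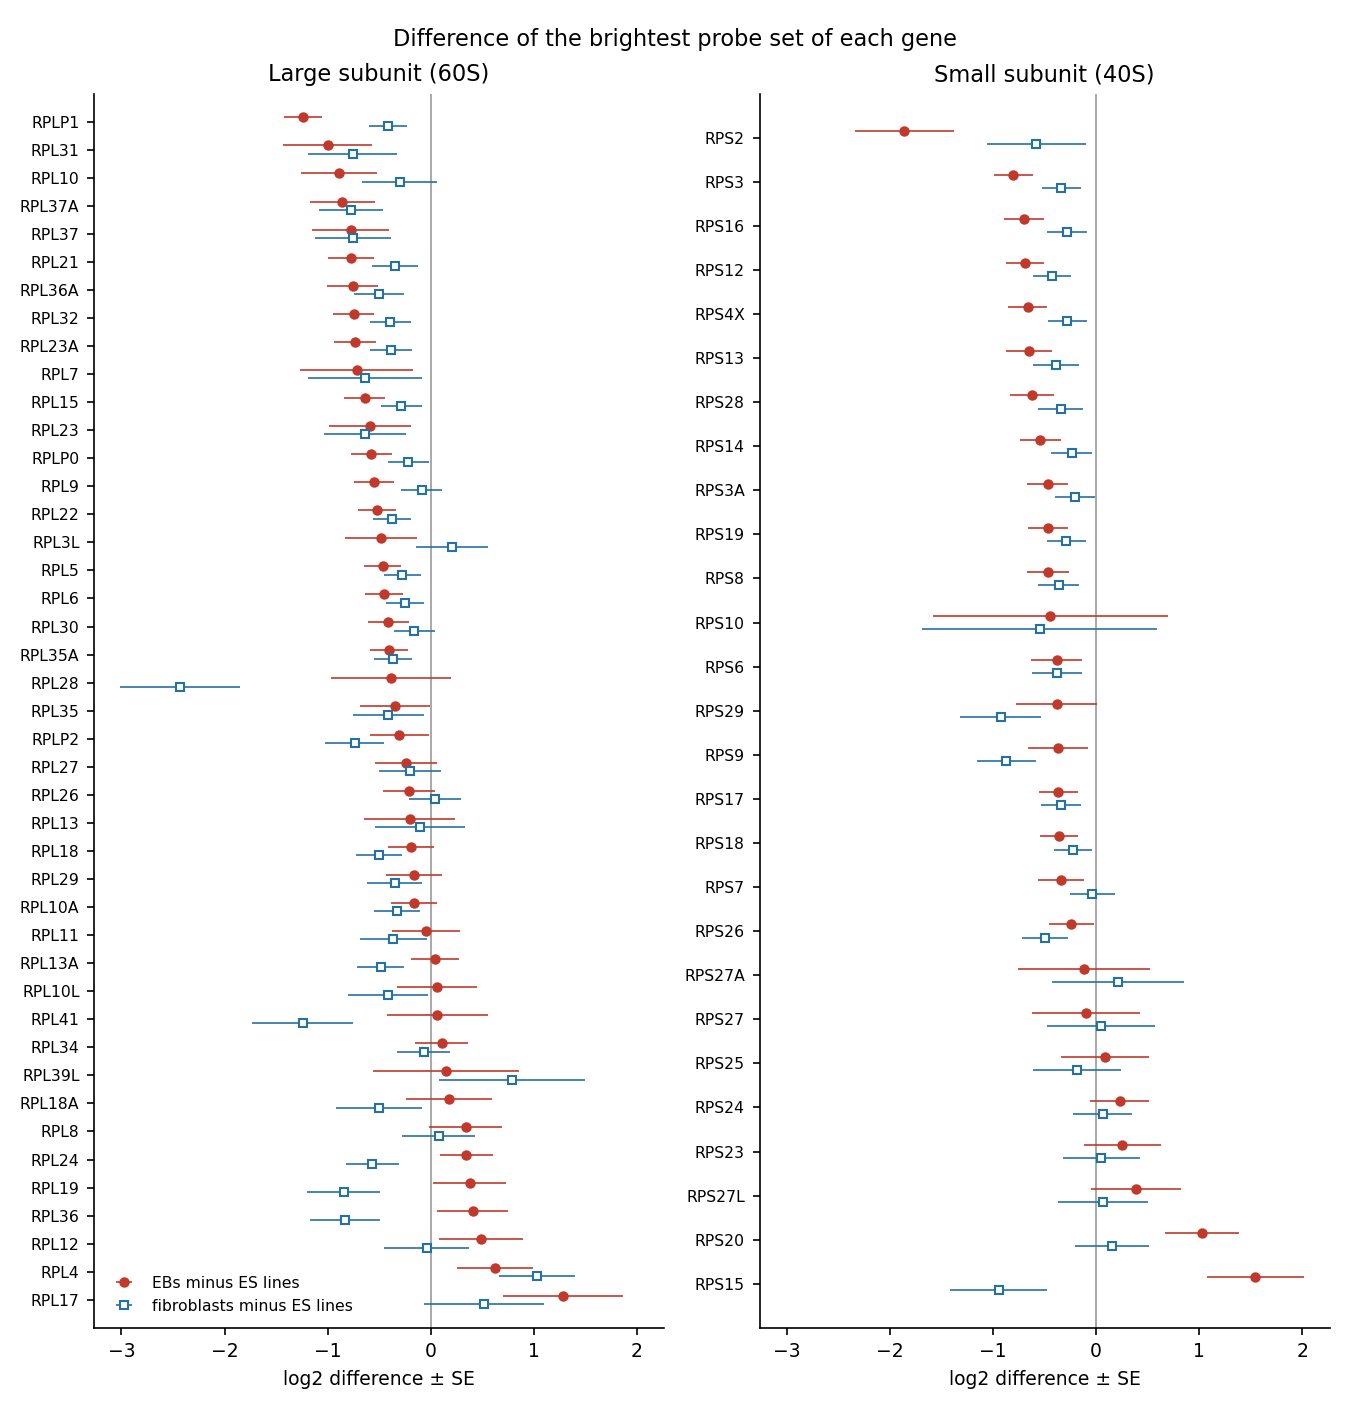
Log2 difference ± SE of the brightest probe set of each of the 70 genes, for EBs minus ES lines (filled circles) and fibroblasts minus ES lines (open squares), with large subunit genes on the left and small subunit genes on the right. On these probe sets 51 genes have a negative difference in EBs and 58 in fibroblasts, and the share over all genes is not given. RPS2, RPL28, RPL41, RPL11 and RPS27 are among the genes with no probe set Present on all 5 lines.

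EBs and fibroblasts shared their ES samples in these comparisons, so their differences are given side by side only. EBs against fibroblasts, 1 array each and without a test, gave a median difference of 0.10 over the members (-0.16 after median centring) and 0.14 over the other probe sets. EBs were more than 2-fold higher for 16 members (10.6%), against 13.3% of all probe sets, and more than 2-fold lower for 4 (2.65%), against 7% of all probe sets. RPS15 was 11.60 in EBs and 9.11 in fibroblasts, and RPS7 was 10.81 in EBs and 8.88 in fibroblasts. RPLP1, in contrast, was 12.51 in EBs and 13.33 in fibroblasts. Of the 151 members, 131 were within 1 log2 unit between both arrays.

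Among members Present on all 5 lines, the EB median was -0.19 over the 61 probe sets of the large subunit and -0.38 over the 36 of the small subunit. The fibroblast medians were -0.34 and -0.31. The EB array lay below all 7 ES arrays for 22 large subunit (36.1%) and 20 small subunit probe sets (55.6%), against 27.9% of all 16769 probe sets Present on all lines, and no difference between the subunits was tested.

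The P stalk, formed by RPLP0, RPLP1 and RPLP2, was measured by 6 probe sets Present on all lines, of which 1 was called, that of RPLP1. RPLP0, the stalk's base (MmugDNA.12980.1.S1_s_at), was 13.07 in EBs and 13.43 in fibroblasts, against 13.31 to 13.91 on the ES arrays. Its differences of -0.58 and -0.22 had limma adjusted p-values of 0.188 and 0.574. The other RPLP0 probe sets, also Present on all lines, had EB differences of -0.11, -0.08 and 0.32. For each of these the EB array lay inside the ES range. RPLP2 (MmugDNA.25921.1.S1_at), the partner of RPLP1, was 12.60 in EBs and 12.17 in fibroblasts, within the ES range of 12.13 to 13.33. The low end of that range came from ORMES6 A and B.

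Among the MDM2 binders, RPL5 (MmugDNA.25868.1.S1_at) was 13.33 in EBs and 13.52 in fibroblasts, against 13.68 to 14.08 on the ES arrays, and neither difference was called. RPL11, whose protein enters the ribosome with RPL5, was reported by a probe set Absent on 4 of 5 lines, at 5.14 in EBs and 4.82 in fibroblasts, against 4.95 to 5.66. No statement on RPL11 can rest on it. RPS6 (MmugDNA.7002.1.S1_s_at), the target of the S6 kinases, was 12.85 in EBs and 12.85 in fibroblasts, against 12.93 to 13.48. Both arrays lay below all ES arrays, and neither difference (-0.38 ± 0.24 in both) was called by limma (adjusted p = 0.507 and 0.403). The other RPS6 probe set Present on all lines had differences of -1.32 in EBs and -1.37 in fibroblasts, also not called.

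The 19 measured Diamond-Blackfan anaemia genes had 39 probe sets, 22 of them Present on all lines. Over these 22 the median was -0.34 in EBs and -0.29 in fibroblasts, near the medians of all Present members (-0.24 and -0.34), and the EB call of RPS24 was the only one. Of the X-linked genes, RPS4X (MmugDNA.32549.1.S1_x_at) was 13.04 in EBs and 13.43 in fibroblasts, against 13.41 to 13.95 on the ES arrays. Its EB difference was -0.66 ± 0.19 (limma adjusted p = 0.111), and the EB array lay below all ES arrays. RPL10 (MmugDNA.7660.1.S1_at), a late-joining large subunit protein, was 7.81 in EBs and 8.40 in fibroblasts, against 8.04 to 9.15.

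Paralogues of restricted expression or linked to p53 were measured as well. RPL39L (MmugDNA.27695.1.S1_at), a paralogue of RPL39 known from testis, was 7.10 in EBs and 7.75 in fibroblasts. ES values were 8.24, 8.06 and 8.27 for ORMES6 A, B and C, 7.24 (ORMES7), 5.84 (ORMES9), 6.93 (ORMES10) and 6.57 (ORMES13). Both differentiated samples lay inside that range, with differences of 0.15 ± 0.71 and 0.79 ± 0.71. RPS27L (MmugDNA.27512.1.S1_x_at), a p53 target, was 6.43 in EBs and 6.29 in fibroblasts, above the 5.38 to 6.09 of the ES arrays, with differences of 0.68 ± 0.38 and 0.54 ± 0.38 (limma adjusted p = 0.434 and 0.448). The other RPS27L probe set, with 6.30 and 5.98, lay inside the ES range of 5.60 to 6.51. RPL10L, a testis paralogue of RPL10, was 5.85 in EBs and 5.38 in fibroblasts, against 5.54 to 6.22. RPL3L, the muscle paralogue of RPL3, was Absent on all 5 lines.

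Between the 5 ES lines, the F test, whose error comes from the ORMES6 replicates, called 0 members with limma, where 0.104% of all probe sets were called. At an unadjusted p under 0.05 there were 12 members (7.95%), against 9.94% of all probe sets. Of 97 members Present on all lines, ORMES9 was highest for 41 (42.3%) and ORMES7 for 33 (34%), against 19.6% and 18.5% of the other Present probe sets. ORMES13 was lowest for 40 (41.2%) and ORMES6 for 32 (33%), against 20% and 24.5%. The median difference of a line from the other 4 was 0.20 in ORMES7, 0.15 in ORMES9, -0.04 in ORMES10, -0.10 in ORMES6 and -0.19 in ORMES13.

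The ORMES6 replicates were themselves unlike. Replicate C was above both A and B for 82 of the 97 Present members (84.5%), against 47.5% of the other Present probe sets. Its median lead over the mean of A and B was 0.58 for members and 0.05 for the others, whereas A and B differed by a median of 0.09 (absolute) for members. Without replicate C the F test called 71 members and 15.9% of all probe sets, and without A or without B it called 0 members.

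Among the 10 members with the smallest F test p, RPS27A (MmugDNA.26506.1.S1_at), made as a fusion with ubiquitin, was 11.46 in ORMES13, against 13.05 to 13.56 on the other 6 ES arrays. It was 12.81 in EBs and 13.14 in fibroblasts, so ORMES13 was the low array of all 9 (limma adjusted p = 0.201). RPS10 (MmugDNA.957.1.S1_x_at) was 11.59 in ORMES7 and 11.47 in ORMES9, against 8.26 to 9.72 on the other ES arrays, and 9.45 in EBs and 9.35 in fibroblasts (limma adjusted p = 0.242). RPL39L was highest in ORMES6 and lowest in ORMES9, with a range of 2.35 over the lines (limma adjusted p = 0.205).

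RPL17 was highest in ORMES6 and lowest in ORMES13, at 8.69, with a range of 1.95 (limma adjusted p = 0.209). RPL13 (MmugDNA.41466.1.S1_at) was 6.21, 6.80 and 7.29 in ORMES6 A, B and C, against 4.17 to 4.98 in the other lines, where it was Absent. RPS7 (MmugDNA.3372.1.S1_at) was lower in ORMES9, ORMES10 and ORMES13 (8.58 to 8.83) than in ORMES6 and ORMES7 (9.39 to 10.11). The summed signals of the fibroblast and endoderm markers split the lines in the same way. Those of the neural, cardiac, and blood and endothelium markers did not. Of the single fibroblast markers, COL1A1, COL3A1, FAP and LUM gave this split, while COL1A2, PRRX1 and, narrowly, PDGFRB did not. Of the endoderm markers, TTR, APOA1, SOX17 and FOXA2 gave it, while AFP and ALB did not. The brighter RPS7 probe set (MmugDNA.28023.1.S1_at) did not give it either, with 13.12 in ORMES9 against 12.80 in ORMES6 A. The summed signal of the fibroblast markers was 5865 in ORMES9, 12874 in ORMES10 and 16250 in ORMES13, against 1340 to 2146 on the ORMES6 and ORMES7 arrays, and that of the endoderm markers was 5022, 2675 and 6950, against 505 to 606. The F test called 2 of the 7 fibroblast and 2 of the 6 endoderm markers between lines, and their part in the differences between lines was not tested. RPS12 (MmugDNA.9537.1.S1_at) was highest in ORMES9, at 11.14, and RPL10A (MmugDNA.36145.1.S1_at) also, at 8.42. RPL28 and RPLP0 (MmugDNA.32039.1.S1_at) were lowest in ORMES10 and ORMES13. The range over lines of these 10 members ran between 0.97 and 3.33, and none passed the adjusted threshold.

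**Figure D4:**
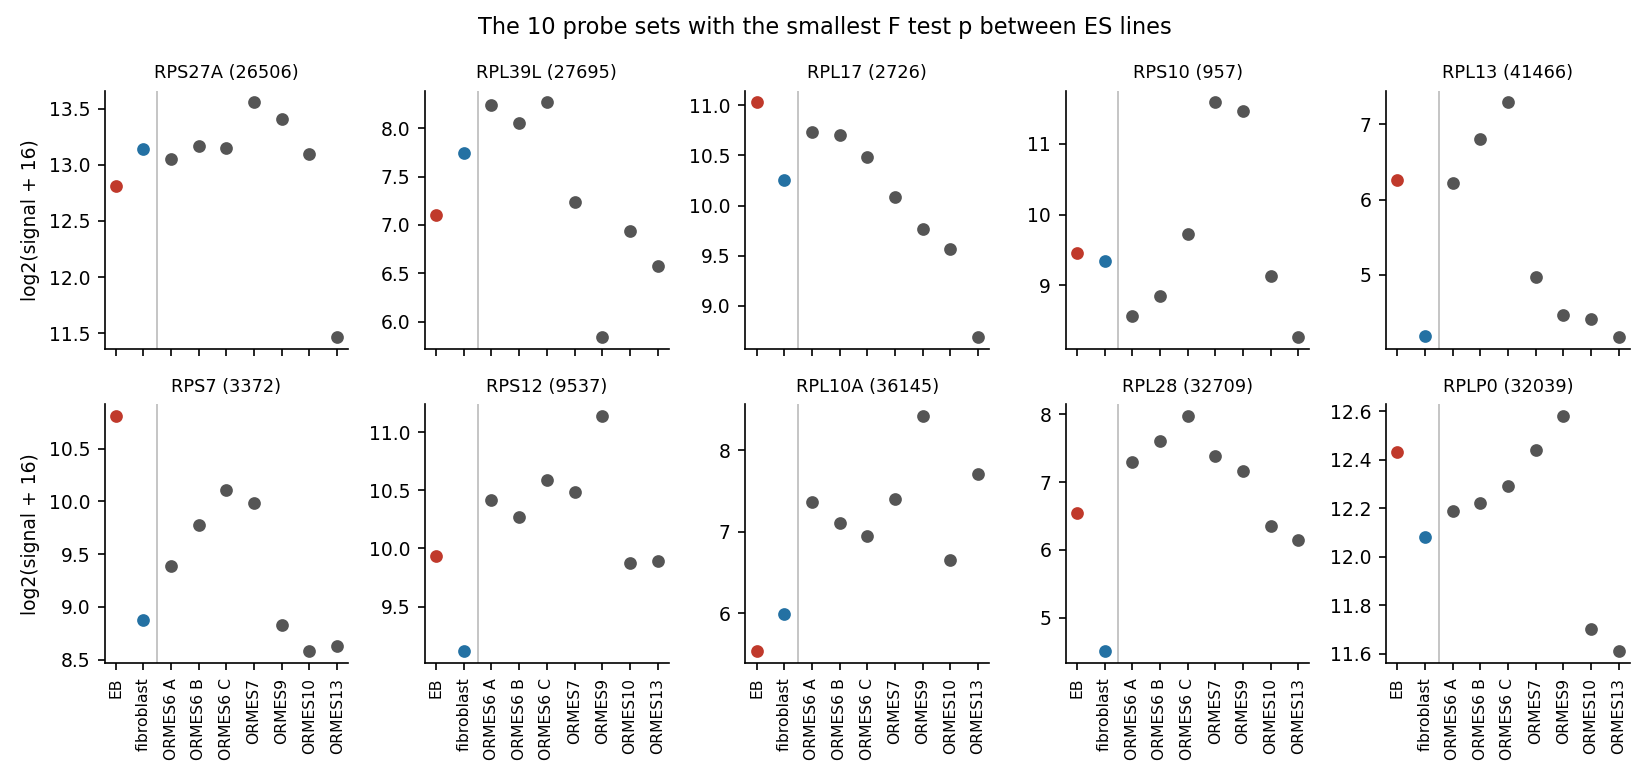
Log2(signal + 16) on each of the 9 arrays for the 10 ribosomal protein probe sets with the smallest F test p between ES lines, the number in brackets being that of the probe set; red points are EBs, blue points fibroblasts and grey points ES arrays, and each panel has its own y axis. RPS27A is low in ORMES13 (11.46), RPS10 is high in ORMES7 and ORMES9 (11.59 and 11.47) and RPL13 is high on the 3 ORMES6 arrays (6.21 to 7.29).

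Probe sets of the same gene often disagreed in the EB comparison. Of 31 genes with several probe sets Present on all lines, 15 had EB differences of both signs, against 2 in the fibroblast comparison. The median spread between the lowest and highest probe set of a gene was 0.67 in EBs and 0.21 in fibroblasts. The widest EB spread was that of RPS24, at 2.50, followed by RPS7, at 2.00, where the brighter probe set (MmugDNA.28023.1.S1_at) had -0.34 and the dimmer one 1.66. RPL7 was the only gene with Present probe sets beyond 0.5 in both directions, at -0.72 and 0.72. In fibroblasts the widest spread was that of RPS25, at 1.375. A statement on a gene with disagreeing probe sets therefore holds for the named probe set only, in EBs and in fibroblasts.

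The other parts of the ribosome's supply were read from the same fit, with the brightest probe set standing for the gene. Over these brightest probe sets the 70 ribosomal protein genes had a median of -0.38 in EBs and -0.34 in fibroblasts, against -0.04 and -0.25 over all 19724 genes. Of these brightest probe sets of all genes, 1.76% were called lower and 2.03% higher in EBs, and 11% lower and 7.07% higher in fibroblasts. Ribosome biogenesis factors, which make ribosomal RNA and assemble the subunits, were called lower in EBs for 5 of 30 measured genes and higher for 0, with a median of -0.66. In fibroblasts 13 were called lower and 1 higher, with a median of -0.89. LYAR, a nucleolar growth regulator, was 8.44 in EBs and 9.30 in fibroblasts, against 10.64 to 11.28 on the ES arrays, and fell by 2.59 ± 0.28 and 1.73 ± 0.28 (limma adjusted p = 0.00473 and 0.00423). DKC1, the pseudouridine synthase of ribosomal RNA, was 11.04 in EBs and 11.40 in fibroblasts, against 12.55 to 12.74 on the ES arrays, and fell by 1.64 ± 0.20 and 1.28 ± 0.20 (limma adjusted p = 0.00693 and 0.00389). For both genes neither differentiated array overlapped the ES arrays. DKC1 and NOLC1 (below) had mean levels between 12 and 13, where the EB median of the other probe sets was -0.51. With the spike covariate, 1 probe set in the whole table was called against the EBs. At most 1 of the 5 EB calls in this list therefore held under that setting. Calls over all probe sets fell there from 1286 to 1, and the lone EB array had the lowest spikes. The loss of a call under that setting is thus not particular to these genes, and nothing is concluded from it. Other settings are not given for the list.

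NOLC1, a nucleolar chaperone of small nucleolar ribonucleoproteins, fell by 1.66 ± 0.24 in EBs (limma adjusted p = 0.0119) and by 1.04 ± 0.24 in fibroblasts (limma adjusted p = 0.0208). BOP1, needed for large subunit assembly, fell by 1.95 ± 0.30 in fibroblasts (limma adjusted p = 0.0035) and had -0.70 in EBs, which was not called. NPM1, the major nucleolar chaperone, fell by 1.61 ± 0.24 in fibroblasts (limma adjusted p = 0.00295). SBDS, which frees new large subunits for translation, rose by 1.94 ± 0.38 in fibroblasts (limma adjusted p = 0.0107).

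Mitochondrial ribosomal proteins, which serve the separate ribosome of mitochondria, had 0 of 75 genes called in EBs (median -0.19). In fibroblasts 7 were called lower, a share below the 11% of all genes, and 0 higher, with a median of -0.52. MRPS26 fell by 2.33 ± 0.38 there (limma adjusted p = 0.00447), MRPL52 fell by 1.92 ± 0.41 and MRPS2 fell by 1.67 ± 0.28. Translation factors and other TOP messages had 0 of 17 genes called in EBs (median -0.33) and 1 lower in fibroblasts (median -0.27), NAP1L1 with -0.87 ± 0.19 (limma adjusted p = 0.02). The elongation factor message EEF1A1 was 13.18 in EBs and 13.73 in fibroblasts. It was 11.99 and 11.94 in ORMES6 A and B, against 13.79 to 14.01 on the other ES arrays, so these replicates stood apart for it. The EB array lay above both, and the part of spike level in these values was not tested. Among 14 upstream regulators, MYCN, a driver of ribosomal gene transcription, was 10.64 in EBs and 4.29 in fibroblasts, against 10.66 to 11.79 on the ES arrays. It was Absent in fibroblasts (detection p 0.602) and at least 134.8-fold lower there than in the ES lines (limma adjusted p = 1.04e-05), and its EB difference of -0.90 was not called. RPS6KA1, a kinase that phosphorylates RPS6, was the other regulator called lower in fibroblasts, by 1.41 ± 0.37 (limma adjusted p = 0.0405), and 0 of the 14 were called in EBs.

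**Figure D5:**
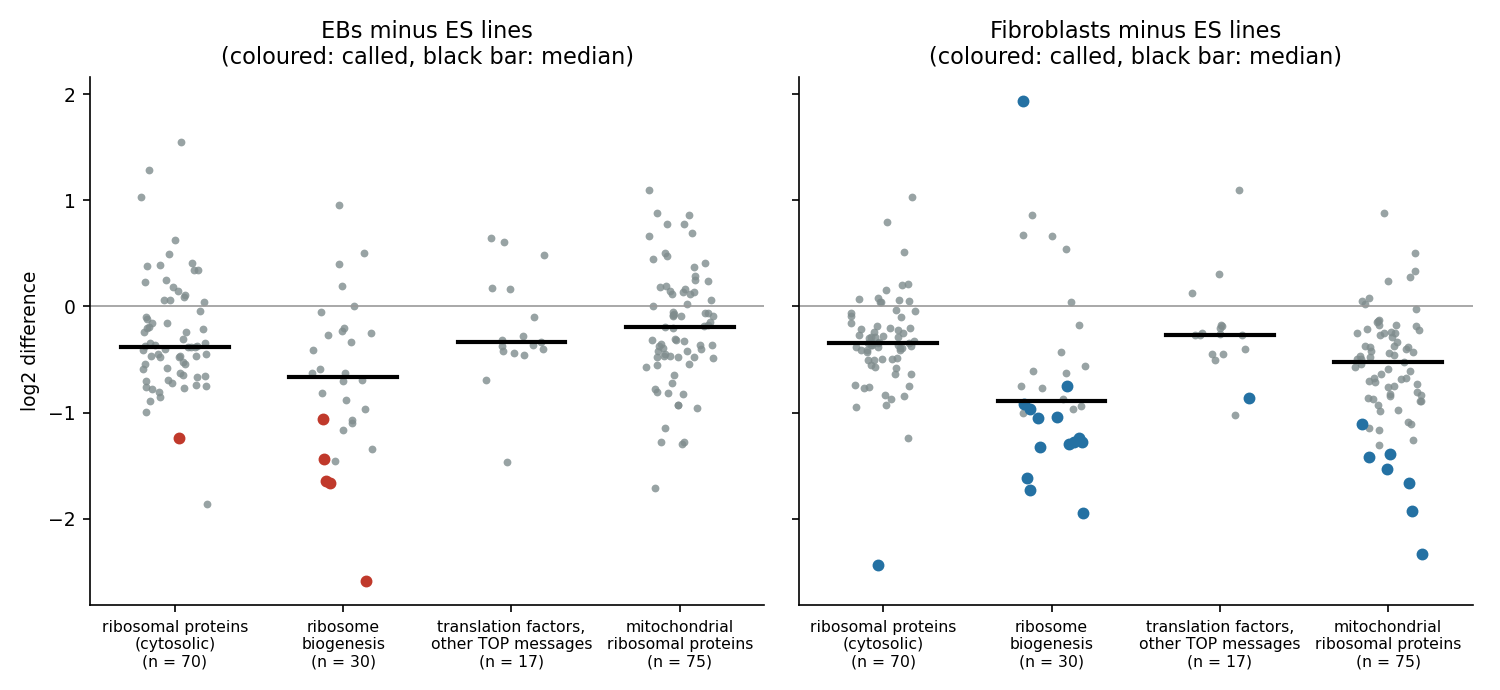
Log2 differences of single genes (brightest probe set; coloured where called, black bar for the median) in 4 lists, for EBs minus ES lines (left) and fibroblasts minus ES lines (right). The cytosolic ribosomal proteins have medians of -0.38 in EBs and -0.34 in fibroblasts, and the ribosome biogenesis genes -0.66 and -0.89, with 5 and 13 called lower and 1 called higher in fibroblasts.

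The authors' deposited table of array-by-array comparisons runs the other way, as a log2 ratio of each ES array over the EB array with a change call. In that table, the median ratio over the 97 Present members was 0.0 for ORMES6 A and B, 0.3 for ORMES6 C, 0.4 for ORMES7 and ORMES9, 0.1 for ORMES10 and -0.3 for ORMES13. The authors' deposited table had medians of -0.3 to 0 over all probe sets, with -0.3 for ORMES13. Increase calls covered 44 of the 151 members (29.1%) for ORMES7 in the authors' deposited table, against 7.71% of all probe sets, and 46 (30.5%) for ORMES9, against 9.03%. For ORMES6 C they covered 44 (29.1%), against 6.41%. For ORMES6 A and B, ORMES10 and ORMES13 they covered 22, 24, 21 and 16 members (10.6% to 15.9%), against 6.95% to 10.3%. Decrease calls in the authors' deposited table covered 6 to 12 members for ORMES6 C, ORMES7 and ORMES9 (3.97% to 7.95%), against 12.4% to 13.6% of all probe sets. For the other 4 arrays they covered 17 to 19 members (11.3% to 12.6%), against 12.1% to 14.6% of all probe sets on those 4. An increase on all 7 ES arrays was deposited for 5 members (3.31%), against 2.35% of all probe sets. These were RPLP0 (MmugDNA.12980.1.S1_s_at), RPS12 (MmugDNA.9537.1.S1_s_at), RPS16 (MmugDNA.24445.1.S1_s_at), RPS24 (MmugDNA.31828.1.S1_at) and RPS4X (MmugDNA.32549.1.S1_s_at). Other probe sets of RPLP0 and RPS24 had 0 increase calls. Those of RPS16 had 0 and 1, that of RPS12 had 4 and that of RPS4X had 6. A decrease on all 7, that is a lower signal in ES cells, was deposited for 3 (1.99%), against 5.56%: RPL13 (MmugDNA.37060.1.S1_at), RPL32 (MmugDNA.25831.1.S1_at) and RPL34 (MmugDNA.25833.1.S1_at).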

How the data were processed

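Total RNA of 9 samples was hybridised to Affymetrix Rhesus arrays. The authors deposited intensity values on a linear scale, made with MAS5 per the labels, at nearly equal trimmed means (200.014 to 200.028), so they were kept without rescaling. They also deposited detection p-values, read here as Present below 0.05 and Absent above 0.065, for the fibroblasts, 4 lines and 1 ORMES6 array whose replicate letter is not given, and, per the file headers, log2 ratios that set each ES array over the EBs. The software for both is not given in the sources used here. A further 136 per-sample columns were not used.

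After removal of 99 control probe sets and 3 that lacked values, 52763 remained. Values were analysed as log2(signal + 16) with lmFit and trended eBayes of limma 3.58.1 in R 4.3.3, with ORMES6 replicates averaged and Benjamini-Hochberg adjustment over all probe sets (4 residual degrees of freedom, median prior 5.04). The number of arrays limits the precision. The fit was tested on simulated data. Symbols come from the deposited annotation, and 68 of the 70 were current in the macaque RefSeq table.

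Members and lists were chosen with earlier results of these data known. Named are all called members (up to 15 a comparison), the 5 largest differences each way, the 10 smallest F test p between lines, the paralogues RPL3L, RPL10L, RPL39L and RPS27L with their parents, 8 fixed genes and up to 3 called genes each way of every other list. Alternatives were another offset, quantile or median scaling, a filter on mean signals under 50, no variance trend, separate ORMES6 arrays, a spike covariate, genes in place of probe sets, probe sets ending in _x_at or _s_at left out, and leaving out lines or replicates. Added after seeing the data were leaving out ORMES6 A and B, counting the 7 probe sets of several symbols, and keeping only members Present on all 5 lines. No genome coordinates are given.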

Additional observations from a re-analysis of the deposited data

Results flagged for a closer look

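Over the 5 ES lines, 38 sets of values (the named probe sets and the medians of members) were searched for a line standing apart. The search used Dixon's test (gap over range above 0.71 for 5 samples), and 3 such sets were found. Chance gives about 1 in 20 only for sets chosen without regard to the lines. Some probe sets, RPS27A among them, were named for a small F test p between these same lines. The count of 3 therefore cannot be set against that rate, and nothing is concluded from it. RPS27A (MmugDNA.26506.1.S1_at) was lowest in ORMES13, at 11.46, against 13.10 to 13.56 in the other lines. RPLP1 (MmugDNA.25908.1.S1_at) was lowest in ORMES6, at 13.62, against 13.76 to 13.79. The 3 ORMES6 replicates behind that mean ranged over 0.79. RPS27L (MmugDNA.27512.1.S1_x_at) was highest in ORMES7, at 6.09, against 5.62 to 5.71.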

How the results depend on the processing

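The count of members called against EBs was 2, and it was 4 with an offset of 64, 1 after quantile normalization, 16 without dim probe sets, 5 at the gene level, and 0 without a variance trend or with the spike covariate. It was 1 to 2 when a line was left out and 1 to 3 when an ORMES6 replicate was left out. The median EB difference was 0.023 after quantile normalization. The count of members called against fibroblasts was 3, and it was 0 with an offset of 64, after quantile normalization or among members Present on all lines, 5 without dim probe sets, and 1 with the spike covariate or at the gene level. It was 1 to 4 without a line and 1 to 3 without a replicate. The median fibroblast difference was -0.28 with an offset of 64, -0.21 after quantile normalization and -0.069 after median centring. The EB minus fibroblast median was -0.16 after median centring and -0.083 at the gene level. Between lines, 0 members were called except without ORMES6 replicate C, where 71 were. The count of all probe sets called was 1286 against EBs and 6291 against fibroblasts. Against EBs it was 1 with the spike covariate, 1982 without dim probe sets, 500 to 1233 without a line and 810 to 1609 without a replicate, and at the gene level it was 4116 of 19724 against fibroblasts. Of 853 named values under the alternatives, 23 turned sign, none of them called, 34 lost a call and 14 gained one. The cause of these changes was not tested. No paired analysis was possible, since the EBs were 1 pooled array of unstated lines and the fibroblasts 1 array. With 1 array for EBs and 1 for fibroblasts, and only ORMES6 replicated, members near background carry little weight.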
